A study of Mus musculus with 4 samples.

Results

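Adhesive and matricellular glycoproteins are secreted proteins that connect cells to the matrix or act on how cells attach to it, more than they bear load themselves. The 10 genes described here are Fn1, Svep1, Thbs1, Thbs2, Tnc, Postn, Spp1, Sparc, Vcan and Mgp, out of 18217 genes with a symbol on the array. They were found through the accession of each non-control probe, which gave 20 of 41174 probes and 38 of 43379 spots. Of these 20 probes, 18 passed the test for signal well above background, which had to hold in either channel on all 4 arrays, and were tested. The other 2 are probes of Vcan. The cells were microvascular smooth muscle cells of male C57BL6 mice, all labelled as Rap1a knockout, and all received a virus overnight without serum at plating. Some carried an empty shuttle vector and the others a vector named RapCA, a name the labels do not spell out, and the series title calls the contrast knockout against rescue. The cells had grown in 10% serum and then recovered for 48 h in 0.5% serum before total RNA was taken. Each of 4 arrays on 1 slide held 1 RNA of each kind, the empty vector in Cy5 and RapCA in Cy3, and the arrays are biological replicates per the labels. Nothing says that these came from separate cultures or animals, so the p-values measure only the spread between these arrays, which may be technical.

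Fibronectin forms fibrils that integrins hold on to, and other matrix proteins assemble on them. Thrombospondins, tenascin-C, periostin, osteopontin and SPARC are called matricellular because they bind receptors, growth factors, proteases or collagen and change how cells spread and adhere. In the vessel wall several of them are low in resting muscle and are known to be made after injury or when the cells leave the contractile state, while matrix Gla protein is best known there as an inhibitor of calcification.

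The 3 genes with the highest ratios that have an entry in the RefSeq promoter table (GRCm38.p6), and the 1 gene that was lower, are shown by the bases that end just before the annotated start of transcription, because these genes stand at opposite ends of the results. The Svep1 stretch is chr4:58206597-58206846 on the minus strand, that of Postn is chr3:54359017-54359266 on the plus strand, that of Tnc is chr4:64047016-64047265 on the minus strand, and that of Spp1 is chr5:104434861-104435110 on the plus strand. Each is printed 5′ to 3′ along the gene, and capitals mark matches to the motifs given after them.
Svep1: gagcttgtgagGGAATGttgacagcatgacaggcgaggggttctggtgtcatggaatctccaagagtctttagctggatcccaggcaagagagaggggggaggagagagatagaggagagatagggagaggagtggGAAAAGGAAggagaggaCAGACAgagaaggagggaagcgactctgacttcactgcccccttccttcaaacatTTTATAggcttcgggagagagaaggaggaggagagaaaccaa
Postn: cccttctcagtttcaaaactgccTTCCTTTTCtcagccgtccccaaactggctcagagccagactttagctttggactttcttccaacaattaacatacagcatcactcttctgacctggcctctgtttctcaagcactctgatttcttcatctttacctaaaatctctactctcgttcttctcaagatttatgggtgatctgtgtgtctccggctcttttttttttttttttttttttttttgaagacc
Tnc: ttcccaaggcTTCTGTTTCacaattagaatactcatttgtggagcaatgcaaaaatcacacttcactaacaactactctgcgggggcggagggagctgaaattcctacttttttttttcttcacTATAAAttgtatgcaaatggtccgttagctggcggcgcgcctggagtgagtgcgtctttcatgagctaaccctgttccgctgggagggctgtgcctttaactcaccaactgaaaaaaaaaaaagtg
Spp1: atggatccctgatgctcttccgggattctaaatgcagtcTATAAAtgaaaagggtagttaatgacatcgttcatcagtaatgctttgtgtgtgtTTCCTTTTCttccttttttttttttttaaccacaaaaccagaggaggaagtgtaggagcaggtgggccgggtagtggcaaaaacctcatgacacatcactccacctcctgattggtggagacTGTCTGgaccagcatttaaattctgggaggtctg

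The table held windows for 7 of the 10 genes, namely Svep1, Thbs2, Tnc, Postn, Spp1, Sparc and Vcan, with 10 windows in all because some genes have several starts. Each window runs from 250 bases before to 50 bases after a start, and both strands were searched. TATAAA, the core of the TATA box, occurred in 6 of the 10 windows, those of 5 genes, and in 13.6% of all 32851 windows. In the windows printed above it lies on the gene's strand at -211 to -206 in Spp1 and at -126 to -121 in Tnc, and on the opposite strand at -42 to -37 in Svep1, counted from the start. A further window of Postn, not printed, has it at -26 to -21. CAGACA, a SMAD-type motif, also occurred in 6 of the 10, those of 5 genes, against 21% of all windows, and is at -97 to -92 in Svep1 and at -34 to -29 in Spp1, there on the opposite strand. GAAANNGAA, an interferon-response-type motif, occurred in 4 of the 10 (1 each of Svep1, Tnc, Postn and Spp1) against 8.56% of all windows. GGAATG, a TEAD motif, occurred in 1 of the 10, that of Svep1, and in 14.7% of all windows. TGANTCA (AP-1) and the CArG box occurred in none of the 10 and in 7.81% and 1.63% of all windows. The motifs do not overlap one another in the printed stretches. The genes that rose and the gene that fell share matches to the TATA box, SMAD and interferon-response motifs in part, and a match describes letters only.

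Directions follow the dye labels. The 1 Rap1a probe was above background in both channels of all 4 arrays and was lower in the channel labelled RapCA. Its log2 ratios were -0.46, -1.02, -1.31 and -1.47 (mean -1.06 ± 0.44, SD, n = 4, limma adjusted p = 0.00204). A rescue that restored the probed sequence would give the other direction. Where that probe lies relative to the deleted part of the gene, or to the insert of the vector, is unknown, and it may check nothing. No array had the dyes exchanged, so dye and condition cannot be told apart, and a swap in the recording of the dyes would turn each sign in what follows. Replicate 1 stood apart, with a correlation of its log2 ratios with those of the other arrays of 0.686 to 0.778 across probes. The other 3 correlated with each other at 0.931 to 0.976. On replicate 1 a share of 51.3% of spots was above background in Cy5, against 60.1% to 61.9% on the others, and 57.7% to 62.9% in Cy3. The median signal over background was 37 in Cy5 on replicate 1 and 75.5 to 83.5 on the others, and 35.5 to 43 in Cy3.

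A log2 ratio here is the log2 signal of the channel labelled RapCA minus that of the channel labelled vector on the same array, after an intensity-dependent (loess) fit within the array. It was tested against 0 over the 4 arrays with limma and a probe counted as called where its p, adjusted by Benjamini-Hochberg over all 23497 probes tested, was under 0.05. With 4 arrays the number of arrays limits the precision. Of the 18 probes of these genes, 15 were called higher in the channel labelled RapCA, where 26.4% of all probes were, and 1 was called lower, where 23.2% were. Taken in either direction, 16 of 18 were called against 49.6% of all probes. With each gene taken at its brightest probe, 8 of the 10 genes were higher against 28.9% of all 12388 genes tested, 1 was lower against 24.9%, and 1 was not called. The median log2 ratio of the 10 genes was 0.92, and that of all genes tested was 0.02. The difference was at least 2-fold at 9 probes that were higher and at the 1 that was lower. The share of all probes that differed by as much was not counted, so these counts have nothing to be read against. Levels in the channels did not overlap between the conditions at 15 of 18 probes, against 42.6% of all probes. These are bulk RNA samples, in which fewer cells of a type and less RNA per cell cannot be told apart.

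**Figure D1:**
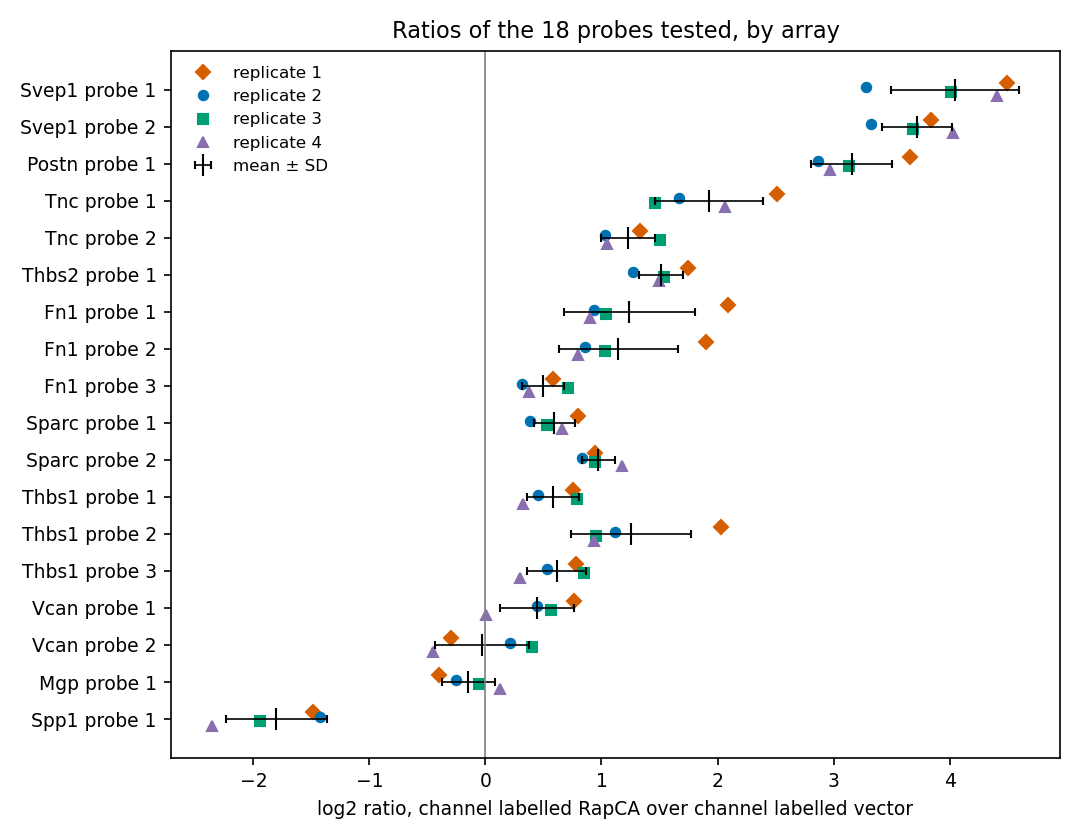
Log2 ratio of each tested probe of the 10 genes on each array (markers) with the mean ± SD over the 4 arrays (black). Svep1 and Postn lie furthest to the right, at means of 4.05, 3.72 and 3.16, and Spp1 alone lies well below 0, at -1.80.

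Svep1 had the largest rise. It encodes a very large secreted protein with sushi, EGF-like and pentraxin domains that binds integrin alpha9 beta1. The normalized log2 level of its first probe was 13.55, 13.40, 13.70 and 13.96 on replicates 1 to 4 in the channel labelled RapCA and 9.06, 10.13, 9.69 and 9.55 in the channel labelled vector. The lowest RapCA level thus lay above the highest vector level by more than the spread within either channel. The log2 ratios were 4.49, 3.28, 4.02 and 4.41, with a mean of 4.05 ± 0.55 (SD, n = 4), a 16.5-fold difference (limma adjusted p = 2.43e-05). Its second probe, to the same transcript, had ratios of 3.84, 3.32, 3.68 and 4.03, with a mean of 3.72 ± 0.30 (adjusted p = 1.03e-05). Replicate 2 was the lowest at both probes, and the probes differed by 0.33 ± 0.29. Among the 12388 genes tested Svep1 ranked 4 from the highest by the ratio of its brightest probe, and both probes were called under all 15 alternative ways of processing, at ratios of 3.80 to 4.30 and 3.56 to 4.17.

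Postn, which encodes periostin, a protein that binds integrins and takes part in collagen crosslinking, ranked 24 of 12388. Its level was 15.04, 15.95, 15.61 and 15.28 in the channel labelled RapCA and 11.38, 13.08, 12.47 and 12.31 in the channel labelled vector. Replicate 1 was lowest and replicate 2 highest in both channels. The log2 ratios were 3.66, 2.87, 3.13 and 2.97, with a mean of 3.16 ± 0.35, an 8.92-fold difference (limma adjusted p = 2.08e-05). Under all 15 alternatives the ratio stayed between 2.73 and 3.25 and was called. Svep1 lay above Postn on all 4 arrays, by 0.89 ± 0.42, although the ranges of their ratios overlapped.

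Tnc encodes tenascin-C, an oligomeric protein that loosens the grip of cells on fibronectin. The log2 level of its first probe was 12.75, 12.55, 12.29 and 12.51 in the channel labelled RapCA and 10.24, 10.89, 10.84 and 10.44 in the channel labelled vector, without overlap. Its ratios of 2.51, 1.67, 1.46 and 2.06 had a mean of 1.93 ± 0.47, or 3.80-fold (limma adjusted p = 0.00019). The second probe gave 1.33, 1.03, 1.51 and 1.04, with a mean of 1.23 ± 0.23 (adjusted p = 0.000237). The first probe was higher than the second on 3 of 4 arrays, by 0.70 ± 0.55 over all 4, and on replicate 3 the order turned, at -0.05. Both probes were called under all 15 alternatives. The lowest ratio of Postn lay above the highest of Tnc, with a difference of 1.23 ± 0.32.

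The thrombospondins Thbs1 and Thbs2 are close relatives that form trimers, bind CD47 and CD36 and restrain new vessel growth, and only Thbs1 activates latent TGF-beta. Thbs2 had levels of 13.67, 13.78, 14.05 and 14.07 in the channel labelled RapCA and 11.93, 12.50, 12.51 and 12.58 in the channel labelled vector, with no overlap. The log2 ratios of 1.74, 1.27, 1.54 and 1.50 lay close together, at a mean of 1.51 ± 0.19, or 2.86-fold (limma adjusted p = 7.93e-05), and were called under all 15 alternatives. Thbs1 was measured by 3 probes to 1 transcript, which did not give 1 size. Probes 1 and 3 had ratios of 0.75, 0.46, 0.79 and 0.33 (mean 0.58 ± 0.23, adjusted p = 0.00569) and of 0.78, 0.53, 0.85 and 0.30 (mean 0.61 ± 0.25, adjusted p = 0.0055). They differed from each other by -0.03 ± 0.05. The second probe had ratios of 2.03, 1.11, 0.95 and 0.94 (mean 1.26 ± 0.52, adjusted p = 0.00165), above the first on all 4 arrays by 0.16 to 1.28. Replicate 1 stood alone at that probe, and without it the mean was 1.00. All 3 Thbs1 probes were higher on 4 of 4 arrays with the loess fit. None was called when each array was centred on its median in its place (ratios of 0.33, 1.06 and 0.44, limma adjusted p = 0.35, 0.106 and 0.256). Probes 1 and 3 were then at -0.08 and -0.09 on replicate 4. Before normalization the channel labelled vector was the brighter at both of these probes on replicates 2 to 4.

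Fn1, which encodes fibronectin, is spotted 10 times on each array by its first probe. After the scanner software's outlier spots were left out, 9 spots remained on each, and their ratios averaged 2.09, 0.93, 1.04 and 0.90 on replicates 1 to 4. The SD between spots of 1 array was 0.03 to 0.06, while the SD over arrays was 0.57, so replicate 1 lay apart from the other 3 by far more than the spots of an array did. The mean ratio was 1.24 ± 0.57, or 2.36-fold (limma adjusted p = 0.00238), and 0.96 without replicate 1 (adjusted p = 6.83e-05). The second probe gave 1.90, 0.86, 1.03 and 0.79 (mean 1.15 ± 0.51, adjusted p = 0.00238), and followed the first within 0.19 on every array. Probe 3 gave 0.58, 0.32, 0.71 and 0.37 (mean 0.50 ± 0.18, adjusted p = 0.00831), below the first on all 4 arrays by 0.33 to 1.50. Probe 3 was not called without replicate 3 (0.42, adjusted p = 0.0705).

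The signals behind the Fn1 ratio differed between replicate 1 and the others in 1 channel. Its first probe had a signal over background of 17261, 18590, 16272 and 17222 in the channel labelled RapCA, nearly level. In the channel labelled vector it had 3691, 18617, 17664 and 16567. On replicates 2 to 4 the channels were thus nearly equal before normalization and differed after it. With median centring the ratios were 2.27, 0.36, 0.31 and 0.38, and no Fn1 probe was called (means of 0.83, 0.85 and 0.33, adjusted p = 0.162, 0.15 and 0.339).

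**Figure D2:**
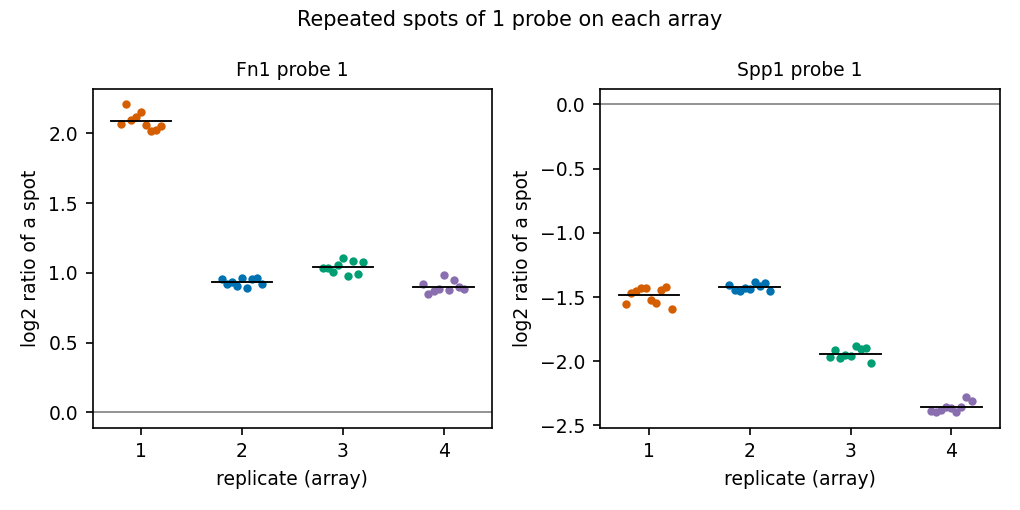
Log2 ratio of every kept spot of the Fn1 probe and of the Spp1 probe that are spotted 10 times on each array (points), with the mean of the array (line). Spots of 1 array lie within a narrow band, at an SD of 0.03 to 0.06, and the arrays lie apart, Fn1 at 2.09 on replicate 1 and 0.90 to 1.04 on the others.

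Spp1 was the 1 gene that fell. It encodes osteopontin, an acidic phosphoprotein that binds integrins and CD44 and is known as a marker of smooth muscle cells that have left the contractile state. Its level was 11.64, 12.87, 12.25 and 11.67 in the channel labelled RapCA and 13.13, 14.29, 14.19 and 14.03 in the channel labelled vector. Replicate 1 was the lowest in both channels, and the levels of the channels did not overlap. The log2 ratios were -1.49, -1.42, -1.94 and -2.36, each a mean of 9 or 10 spots with an SD of 0.03 to 0.06 between them. The mean was -1.80 ± 0.44, a 3.49-fold higher level in the channel labelled vector (limma adjusted p = 0.000207). It was called lower under all 15 alternatives, at -2.13 to -1.62. By this ratio Spp1 stood at rank 184 from the lowest of 12388 genes, and its highest ratio lay below the lowest ratio of any other of the 10 genes.

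Sparc encodes SPARC, a collagen-binding protein that loosens cell contacts and handles procollagen. Its second probe had levels of 16.27, 16.16, 16.24 and 16.49 in the channel labelled RapCA and 15.33, 15.33, 15.29 and 15.32 in the channel labelled vector. These gave ratios of 0.94, 0.83, 0.95 and 1.18, with a mean of 0.97 ± 0.14, or 1.96-fold (limma adjusted p = 0.00034). The first, brighter probe had ratios of 0.80, 0.38, 0.53 and 0.66 (mean 0.59 ± 0.18, 1.51-fold, adjusted p = 0.00369), below the second on all 4 arrays. Its direction depended on the normalization. Before any, its signal was 201200, 133130, 125870 and 160440 in the channel labelled RapCA and 188060, 245370, 239290 and 221980 in the channel labelled vector, so that the channel labelled vector was brighter on replicates 2 to 4. With median centring the mean ratio was -0.25 (adjusted p = 0.278), and with the ratios of the scanner software it was 0.91. The second probe kept its direction with median centring but was not called (0.32, adjusted p = 0.159).

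Vcan encodes versican, a large chondroitin sulphate proteoglycan that binds hyaluronan and has splice forms. The file assigns its probes to different transcripts, 1 of them to NM_001081249 and 3 to NM_172955. The first had levels of 9.24, 10.20, 10.04 and 9.55 in the channel labelled RapCA and 8.48, 9.76, 9.47 and 9.54 in the channel labelled vector, and the channels overlapped. Its ratios were 0.76, 0.45, 0.57 and 0.01, and the mean of 0.45 ± 0.32 was called (limma adjusted p = 0.0321). That call was lost under 7 of the 15 alternatives, among them leaving out replicate 2 (adjusted p = 0.112) or replicate 3 (adjusted p = 0.134). The second probe had ratios of -0.29, 0.22, 0.40 and -0.45 and was not called (mean -0.03 ± 0.41, adjusted p = 0.888). It was below the first probe on all 4 arrays, by 0.17 to 1.06. The other 2 probes were not well above background on any array in either channel.

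Mgp encodes matrix Gla protein, whose glutamates are carboxylated with vitamin K. Its level was 13.21, 13.15, 13.56 and 13.40 in the channel labelled RapCA and 13.61, 13.40, 13.62 and 13.28 in the channel labelled vector, and the channels overlapped. The log2 ratios were -0.40, -0.25, -0.06 and 0.12, with a mean of -0.15 ± 0.23 that was not called (limma adjusted p = 0.334). With median centring the mean was -0.53 and was called lower (adjusted p = 0.0443).

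**Figure D3:**
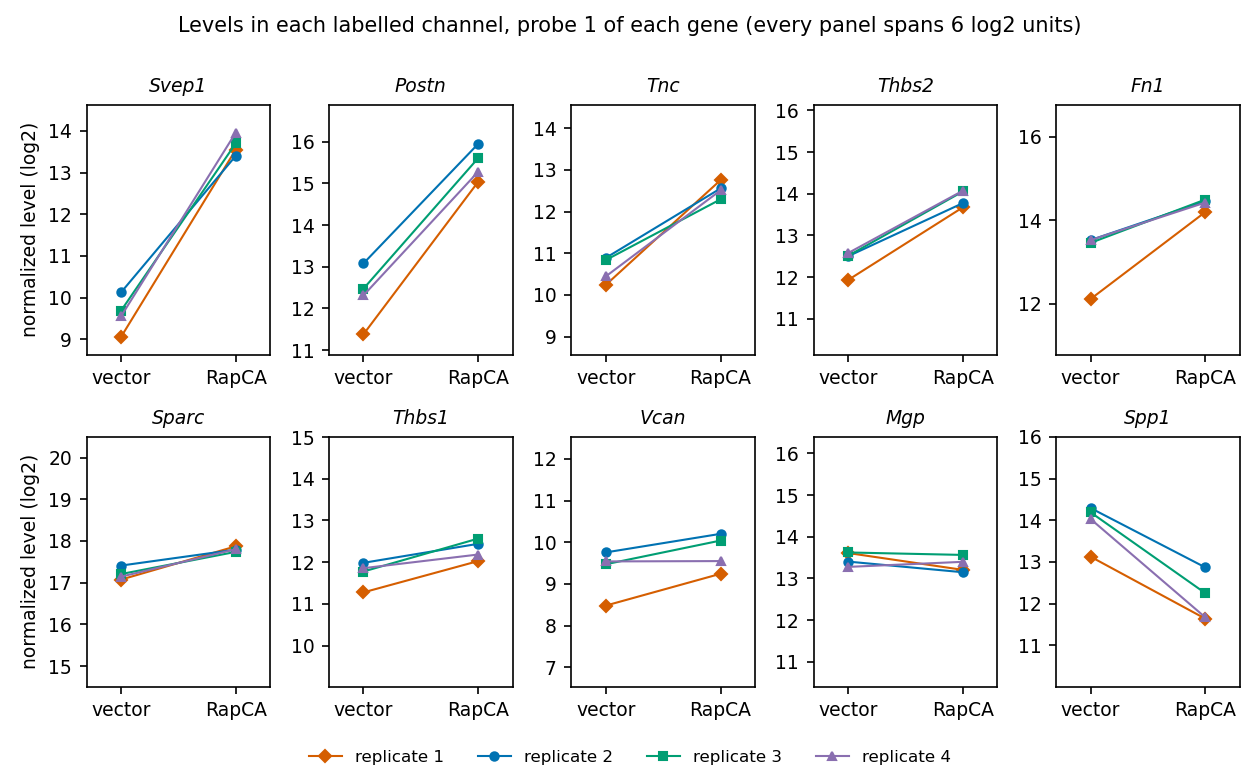
Normalized log2 level of the brightest probe of each gene in the channel labelled vector and in the channel labelled RapCA, with a line for each array. Lines rise on all 4 arrays for the 5 genes of the upper row, fall on all 4 for Spp1 and go both ways for Mgp.

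Ordered by the ratio of the brightest probe, the genes ran Svep1, Postn, Tnc, Thbs2, Fn1, Sparc, Thbs1, Vcan, Mgp and Spp1. Neighbours whose ratios did not overlap over the 4 arrays were Postn above Tnc, Fn1 above Sparc (by 0.65 ± 0.45) and Mgp above Spp1 (by 1.65 ± 0.66). The other 6 neighbouring pairs overlapped, and Sparc and Thbs1 differed by 0.01 ± 0.25. The order of Fn1, Sparc and Thbs1 depended on the probe taken. Sparc probe 2 had a mean of 0.97 and Thbs1 probe 2 of 1.26, both above Fn1 probe 3 at 0.50. In rank among all genes tested, Tnc stood at 205, Thbs2 at 442, Fn1 at 726, Sparc at 2417, Thbs1 at 2473, Vcan at 3140 and Mgp at 7714. Replicate 1 was the lowest array in the channel labelled vector at 15 of the 18 probes, against 45.3% of all probes, and in the channel labelled RapCA at 8, against 21.4%. Without replicate 1 the counts were the same, with 15 probes higher and 1 lower, while the share of all probes called higher was 34.4% and the share called lower 32.6%.

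The normalization moved more calls than leaving out any single array did. With median centring 6 of the 18 probes were called higher (Svep1, Tnc, Thbs2 and Postn), against 11.2% of all probes, and 2 were called lower (Spp1 and Mgp), against 16.7%. That setting put the median of all probes at -0.14, where loess put it at 0.01, and of all probes called it gave 40.1% higher against 53.3% with loess. By gene it left 4 of the 10 higher, against 12.4% of all genes tested, and 2 lower, against 20%. Svep1, Postn, Tnc, Thbs2 and Spp1 were thus called in the same direction under both.

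**Figure D4:**
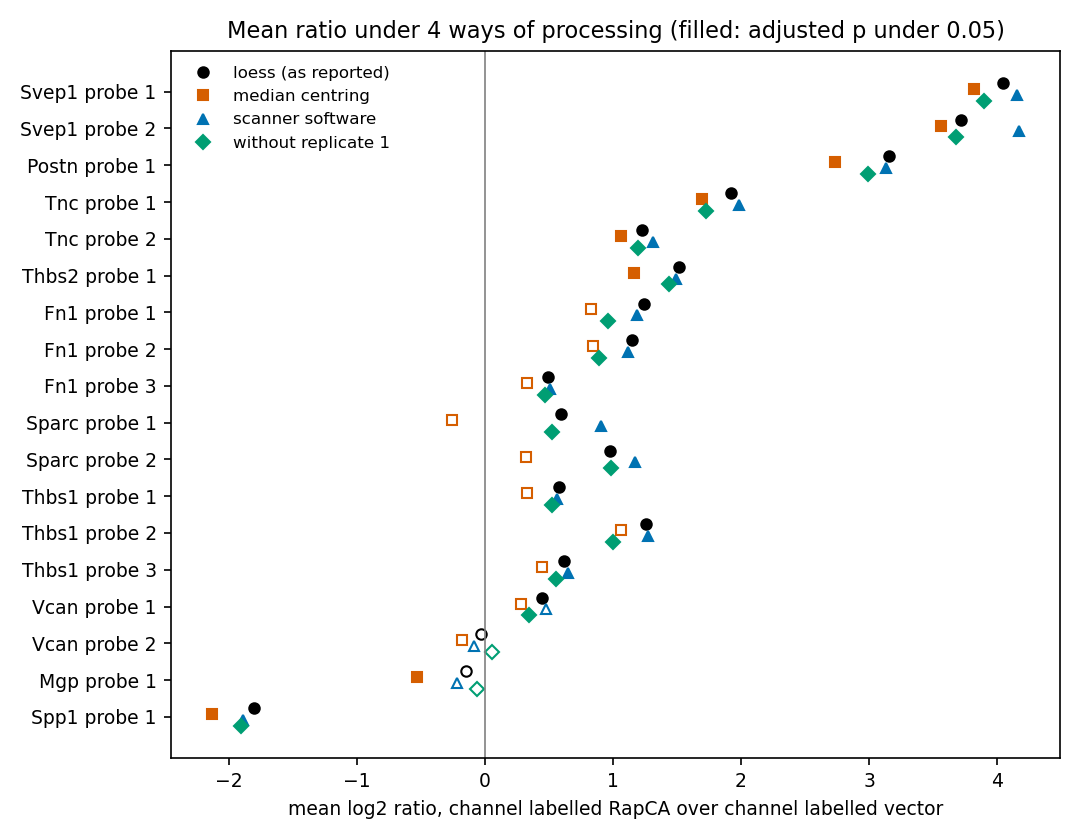
Mean log2 ratio of each tested probe with the loess fit, with median centring, with the ratios of the scanner software and without replicate 1 (filled where the limma adjusted p is under 0.05). Median centring lies to the left of loess at every probe, and with it Sparc probe 1 lies at -0.25 in place of 0.59.

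Relatives by family or matrix were mostly higher too. Of 34 listed genes 20 were tested, of which 13 were called higher, 2 lower and 5 not. Over all 12388 genes 28.9% were higher and 24.9% lower. The median log2 ratio was 0.71 over the 20 and 0.02 over all genes. With median centring 10 of the 20 were higher and 1 lower, against 12.4% and 20% of all genes. Fstl1, which encodes a secreted relative of SPARC, had ratios of 3.68, 2.76, 2.92 and 2.90 (mean 3.07 ± 0.42, limma adjusted p = 2.86e-05). Other relatives of SPARC were also higher, Smoc2 at 2.11 ± 0.38 and Sparcl1 at 1.83 ± 0.20, and both have a further probe called the same way. Ecm1, a secreted matrix glycoprotein, had 1.57 ± 0.12 (0.90 with median centring). Bglap, which encodes osteocalcin, a Gla protein of bone like Mgp in its vitamin K dependence, was lower at -1.60 ± 0.26. With the ratios of the scanner software it was at -3.06. Its mean level in the channel labelled RapCA was low, at 6.56, so the size was poorly fixed. The 5 that were not called, Npnt, Has1, Hapln3, Mmrn2 and Acan, had ratios of -0.25 to 0.03. In the channel labelled RapCA, Npnt was above background on only 1 array and Has1 on 3, so their ratios were poorly fixed. With the ratios of the scanner software Npnt and Has1 were called lower (-1.05 and -0.85, adjusted p = 0.00124 and 0.0384). The count of lower genes was 3 without replicate 1, where 34% of all genes were lower, and 1 without replicate 2, 3 or 4. Without replicate 2, 3 and 4 in turn, 3625 of 23487, 3523 of 23487 and 4142 of 23486 probes were lower. The other lower gene, Has2, a hyaluronan synthase at -0.48 ± 0.36, had an adjusted p of 0.0301, and of 0.0774, 0.0792 and 0.0797 without replicate 2, 3 and 4.

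Receptors of these proteins were higher at 12 of 18 tested genes, lower at 2 and not called at 4, out of 22 listed, against 28.9% higher and 24.9% lower over all genes. Their median was 0.62. Lrp1, an endocytic receptor that takes up thrombospondins, had ratios of 2.96, 2.43, 2.74 and 2.85 (mean 2.74 ± 0.23, limma adjusted p = 1.71e-05). Egfr, the epidermal growth factor receptor, to which EGF-like repeats of tenascin-C can bind, was higher at 2.30 ± 0.29, with all 4 of its probes called the same way. The integrin chains Itgav, Itgb5 and Itga9, parts of receptors for several of these proteins, were higher at 1.35 ± 0.31, 1.21 ± 0.19 and 1.14 ± 0.20, where Itgav was called at 1 of its 2 probes. Itgb5 was at 0.66 with median centring, and Itga9 at 1.87 with the ratios of the scanner software. Itga9 is the alpha chain of the Svep1 receptor. The receptor chain Itga4 was lower at -1.18 ± 0.31 (-2.11 with the ratios of the scanner software) and Cd44, which binds osteopontin and hyaluronan, at -0.93 ± 0.58. Itga4 had a low mean level in the channel labelled RapCA, at 6.66, so the size of its fall was poorly fixed. Cd47, Tlr4, Calr and Itga5 were not called, at -0.29 to -0.01. The other Calr probe was called lower, and the brightest was too with median centring (-0.78, adjusted p = 0.0396). Cd44 was at -0.09 on replicate 1 and between -1.34 and -1.01 on the others, and was not called with median centring (adjusted p = 0.0681). Without replicate 1 the count of lower receptors was 4 of 18, Cd47 and Calr among them (adjusted p = 0.0118 and 0.0271), against 34% of all genes. With median centring 5 were higher and 2 lower, against 12.4% and 20% of all genes.

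Enzymes and inhibitors that process these proteins were higher at 16 of 21 tested genes, lower at 3 and not called at 2, out of 25 listed, against 28.9% higher and 24.9% lower over all genes. Their median was 1.05. Mmp3, which encodes stromelysin-1, a protease that cuts fibronectin and tenascin-C, had ratios of -3.33, -3.13, -3.41 and -3.45 (mean -3.33 ± 0.14, limma adjusted p = 6.99e-06) and was the lowest of the list. Timp3 and Timp2, which encode inhibitors of such proteases, rose by 2.49 ± 0.35 and 1.88 ± 0.24 on the log2 scale, and Timp2 by 1.15 with median centring. Adamts5, the gene of a protease that can cut versican, was higher at 2.77 ± 0.55. Adamts20, of the same family, was called higher too (adjusted p = 4.25e-05), but was above background on only 1 array in the channel labelled vector, against 4 in the channel labelled RapCA. Its size was therefore poorly fixed, at 1.82 here and 4.16 with the ratios of the scanner software. The other 2 lower genes were Plau, the urokinase gene, at -0.45 ± 0.15 and the inhibitor Timp1 at -0.29 ± 0.05. Plau was called lower at 1 of its 2 probes. Timp1 was at -0.93 with median centring, and was not called with the ratios of the scanner software (adjusted p = 0.205) or without replicate 2, 3 or 4 (0.16, 0.195 and 0.0718). Plau was not called with median centring (0.061) or without replicate 3 (0.0734). Furin (-0.26) and Fam20c (0.18) were not called, though Furin was lower with median centring (-0.56, adjusted p = 0.0211) and Fam20c higher without replicate 1 (0.40, adjusted p = 0.00544). The count of lower enzymes was 3 without replicate 1, where 34% of all genes were lower. It was 2, 1 and 2 without replicate 2, 3 and 4. In the same order, 3625 of 23487, 3523 of 23487 and 4142 of 23486 probes were lower. With median centring 13 of the 21 were higher and 3 lower, against 12.4% and 20% of all genes.

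**Figure D5:**
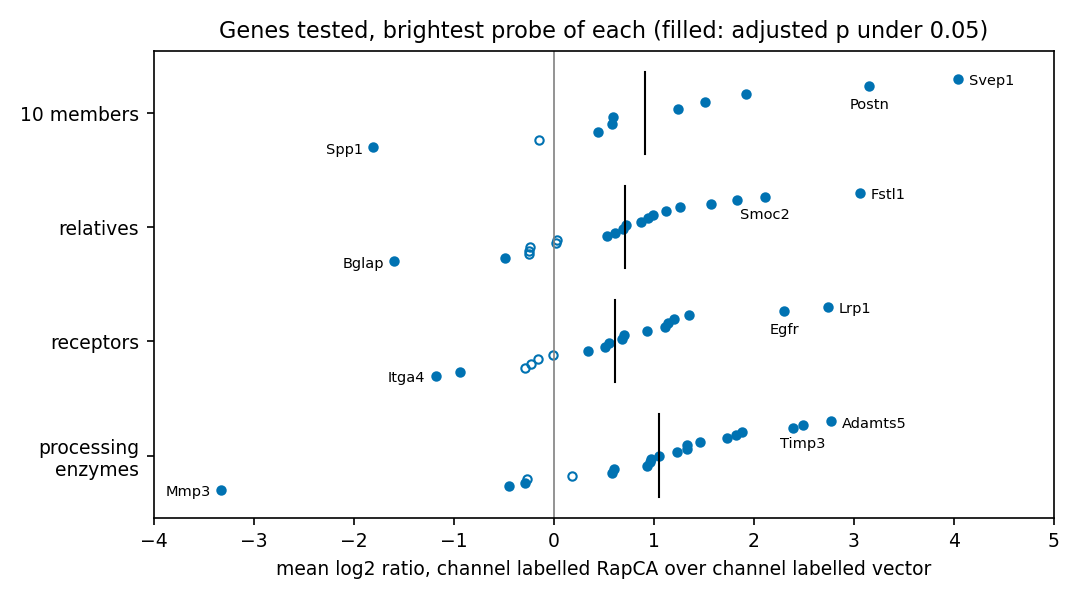
Mean log2 ratio of the brightest probe of each tested gene among the 10 glycoproteins, their relatives, their receptors and the enzymes that process them (filled where the limma adjusted p is under 0.05), with the median of each list (line). The medians are 0.92, 0.71, 0.62 and 1.05, and Mmp3 lies furthest to the left at -3.33.

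Markers of some cell types differed between the channels too, not all in 1 direction, and their part in the results was not tested. Their values under the alternatives are not given here. Of 8 smooth muscle markers 7 were above background on all arrays in both channels, all but Des. Fibroblast markers passed nearly as often (below), so passing does not by itself tell the cell type. Of the 7 above background, 4 were called higher (Tagln, Lmod1, Actg2 and Acta2) and 0 lower, against 28.9% and 24.9% of all genes. The contractile markers Myh11, Smtn and Cnn1 had ratios of 0.13, 0.08 and 0.07 that were not called. Myh11 was dim, at mean levels of 6.62 (RapCA) and 6.49 (vector), so its ratio says little about a difference. Levels of a list were summed on the linear scale, which weighs the brightest markers most. The normalized levels of the 8 smooth muscle markers summed to 337000 to 370000 in the channel labelled RapCA and 159000 to 207000 in the channel labelled vector. Fibroblast markers were above background at 5 of 6 (Lum was not), and 4 of these 5 were higher, against 28.9% of all genes. Their summed level was 491000 to 594000 against 87800 to 148000. Of these Dcn had 3.88, Dpt 2.76, Col1a1 2.40 and Col3a1 2.18, and Pdgfra had 0.17 and was not called. Of 5 pericyte markers Rgs5 and Abcc9 were not above background in either channel, and the list summed to 27100 to 30800 against 9110 to 12800. Pdgfrb (1.78) and Cspg4 (0.88) were higher and Kcnj8 (-0.40, adjusted p = 0.0116) was lower. The other lists were dim. Endothelial markers summed to 654 to 671 against 868 to 1030, with Pecam1, Cdh5 and Tie1 not above background in either channel. Vwf (-2.03) and Kdr (-0.75) were lower, and Tek, above background on 2 arrays in the channel labelled vector, was higher (1.16, adjusted p = 0.000294). Leukocyte markers summed to 657 to 785 against 599 to 846, with Ptprc, Adgre1 and Itgam not above background, and the 2 tested (Cd14 and Csf1r) were not called. Epithelial markers summed to 287 to 307 against 389 to 408, with Epcam and Cdh1 not above background, and Krt8 was called lower (adjusted p = 0.000166) and was above background only in the channel labelled vector.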

How the data were processed

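The arrays were scanned and quantified by the authors with Agilent Feature Extraction, whose version is 10.7.3.1 in the file headers and 10.9 in the submitters' processing notes. The deposited intensity values, which carry no normalization per the file headers, are medians over the pixels of a spot and over the ring around it. The deposited log10 values, Cy5 over Cy3, had their background subtracted and their dyes normalized by the scanner software, per the file headers, and served as alternatives. Here background was corrected with normexp (offset 50), and a loess fit within arrays, in which control spots had weight 0, gave the ratios. Outlier spots (94 to 137 an array) were left out, spots of a probe were averaged, and no spot was saturated. Probes were kept if 1 channel or both were well above background on all 4 arrays, with at least 3 arrays measured. They were tested with limma 3.58.1 (lmFit and eBayes) in R 4.3.3, with statmod 1.5.0 and the package data.table in version 1.17.8. Over all probes tested, the median of the SDs over arrays was 0.25. Channel levels were scaled between arrays with Aquantile. Symbols came from RefSeq by accession, for 64.8% of probes, and probe positions were not used here because the builds differ. The script was tested on simulated data. The 10 genes and the lists of relatives, receptors, enzymes and cell type markers were chosen with earlier results of these data known. Named were all 10 genes with every probe, Rap1a and, of each list, the called genes with the 5 smallest p-values. Has2, Itga4, Cd44, Plau, Timp1, the listed genes not called and the single markers were named after their values were seen. The alternatives covered background correction, normalization, the scanner software's ratios, filters, variance models, array weights, separate channels, 1 probe a gene and each array left out. A planned description of protein sequences was not made here. Figures used Python 3.11.15, pandas 2.3.3 and matplotlib 3.10.9.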

Additional observations from a re-analysis of the deposited data

Results flagged for a closer look

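At the first Fn1 probe the ratio on replicate 1, 2.09, stood far from those of the other 3 arrays, with a gap to the nearest of them of 0.884 of the whole range. At the second Thbs1 probe replicate 1 stood apart in the same way, at 2.03 and 0.838 of the range. Among all 23485 probes measured on every array, 2635 (11.2%) had 1 array as far from the rest, and chance flags about 1 in 20. Both calls held without replicate 1, at means of 0.96 for Fn1 and 1.00 for Thbs1. The cause was not tested.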

How the results depend on the processing

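Of 270 values of the 18 probes under 15 alternatives, 250 kept their direction and their side of the threshold, 15 lost the call, 1 gained it and 4 changed sign. The changes of sign were Sparc probe 1 with median centring (-0.25) and Vcan probe 2 with array quality weights (0.24, called, adjusted p = 0.0281), and, when replicates were left out in turn, Vcan probe 2 between -0.18 and 0.11. With median centring 8 probes of the 10 genes were called, 6 higher and 2 lower, against 16, 15 and 1. Counting 1 probe a gene gave 9 and 8 higher. Over all probes 11656 were called, 6210 higher and 5446 lower. Median centring gave 6546 (2624 higher), array quality weights 17692 (8639 lower), 1 probe a gene 6673 (3584 higher and 3089 lower). Leaving out replicates gave 7907 to 15738 in all and 3523 to 7664 lower, lowest without replicate 3 (7907 and 3523) and highest without replicate 1. Of the 59 listed genes 48 were called, 7 of them lower, where 6673 of all 12388 genes were called and 3089 were lower. With array quality weights 13 of the 59 were lower, where 8639 of 23497 probes were. When replicates were left out, 4 (without replicate 3) to 10 (without replicate 1) of the 59 were lower. In those settings 3523 of 23487 and 7664 of 23492 probes were lower. Leaving out replicates gave 14 to 16 called probes of the 10 genes. The cause of these differences was not tested. The reported test pairs the channels of an array, and taking them as unpaired samples called 10248 probes in all and 15 of the 18. At 2 Vcan probes signal over background limits the result, since neither channel was above it.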
